A study of Homo sapiens with 6 samples.

Results

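The histone genes are described here on 6 arrays of K562, an established human line derived from the leukaemic cells of chronic myelogenous leukaemia. A probe set, the group of probes that reads 1 transcript or several similar ones, belonged to the group if its platform annotation held a single symbol and that symbol was one of the H1, H2AC, H2BC, H3C or H4C series, or H2AX, H2AZ1, H2AZ2, H3-3A, H3-3B or MACROH2A1. This gave 50 of the 19775 genes with such a probe set, read by 71 of the 54613 probe sets other than controls. The rule itself uses no measured value. The treated wells held 25 nM CA for 3 h, where CA is cortistatin A, a natural product that inhibits CDK8 and CDK19, the kinases of the Mediator complex, and the control wells held the solvent DMSO for 3 h. Each condition had 3 arrays, from wells seeded at 500000 to 800000 cells per mL, so the p values below measure the spread between wells of 1 cell line. The labels name both a column kit and TRIzol for RNA isolation, without tying either to a well.

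Histones package DNA into nucleosomes: an octamer of H2A, H2B, H3 and H4 forms the core, and H1 binds the linker between cores. Most core and linker histones come from genes without introns that lie in clusters on chromosomes 6 and 1 and are transcribed mainly while DNA is replicated. Their transcripts usually end in a stem-loop in place of a poly(A) tail, whereas variant histones such as H2A.Z, H3.3 and macroH2A come from single genes with polyadenylated transcripts made throughout the cell cycle. The labelling here primes on poly(A), so for the clustered genes it is expected to read mainly those copies that carry a tail. Levels of the stem-loop form were not measured. In bulk RNA, fewer expressing cells and less RNA per cell cannot be told apart.

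Values are RMA signals on the log2 scale, and a change is CA minus DMSO on that scale. Of the 71 histone probe sets, 56 of 40 genes had a mean at or above the median over all probe sets and were tested, among 27307 in all. The 15 that were too dim had means that lay between 1.69 and 3.48, were the only probe sets of 10 genes, and had differences between group means of -0.19 to 0.19. RMA brings the arrays to 1 common distribution, so these values cannot show a change common to nearly all transcripts. The arrays correlated with each other at 0.997, CA array 1 lay at -19.0 on the second principal component against 0.338 to 7.20 for the others, and all 7 erythroid markers with a single-symbol probe set were expressed, at 6.11 to 13.27 with CA and 6.05 to 13.27 with DMSO. Of 13 measured markers of other cell types, 8 were above the filter, the brightest being EPCAM (10.45 with CA and 10.47 with DMSO), CD3D (9.05 with CA and 9.08 with DMSO) and COL1A1 (6.97 with CA and 6.92 with DMSO), while ALB, CD14, CD2, MS4A1 and COL3A1 were below it. The difference between the 3' and 5' probe sets of actin and of the added control RNAs dap and thr, which is sensitive to how far labelling runs from the 3' end, was 2.05, 2.10 and 2.23 with CA, against 2.35, 2.43 and 2.36 with DMSO. It thus moved with the treatment, and its part in the values below was not tested beyond a fit with it as a covariate. In that fit limma called 0 of all 27307 tested probe sets, and so none of the histone ones. At an unadjusted p under 0.05, 6 histone probe sets were lower and 1 higher, and the share of all probe sets was not counted there. The median change of the clustered genes was -0.14, against -0.02 over all tested probe sets.

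Of the 35 tested clustered histone probe sets with a single symbol, 30 had a fitted change below 0, by up to 1.30-fold. None of the single-symbol histone probe sets passed the test over all probe sets. An H2B probe set with several symbols, described further below, was 1.70-fold lower. The transcripts with the smallest p were those of H2BC4, H2AC6 and H2BC21, which encode core histones, and of H1-10, a linker histone gene outside the clusters. Of the 56 tested histone probe sets 45 had a fitted change below 0, against 53.5% of all tested probe sets, and their median was -0.05, against -0.01. With limma, 0 of 56 were called at an adjusted p under 0.05, where 0.0952% of all probe sets were, 0.0439% as lower. At an unadjusted p under 0.05 there were 12 lower and 0 higher, against 9.31% of all tested probe sets, 4.76% lower and 4.55% higher. The CA arrays lay entirely below the DMSO arrays for 15 of the 56, against 8.52% of all, and entirely above them for 1, H3C3 at 0.05, against 7.09%. The adjusted p values of the 56 lay between 0.129 and 0.990.

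**Figure D1:**
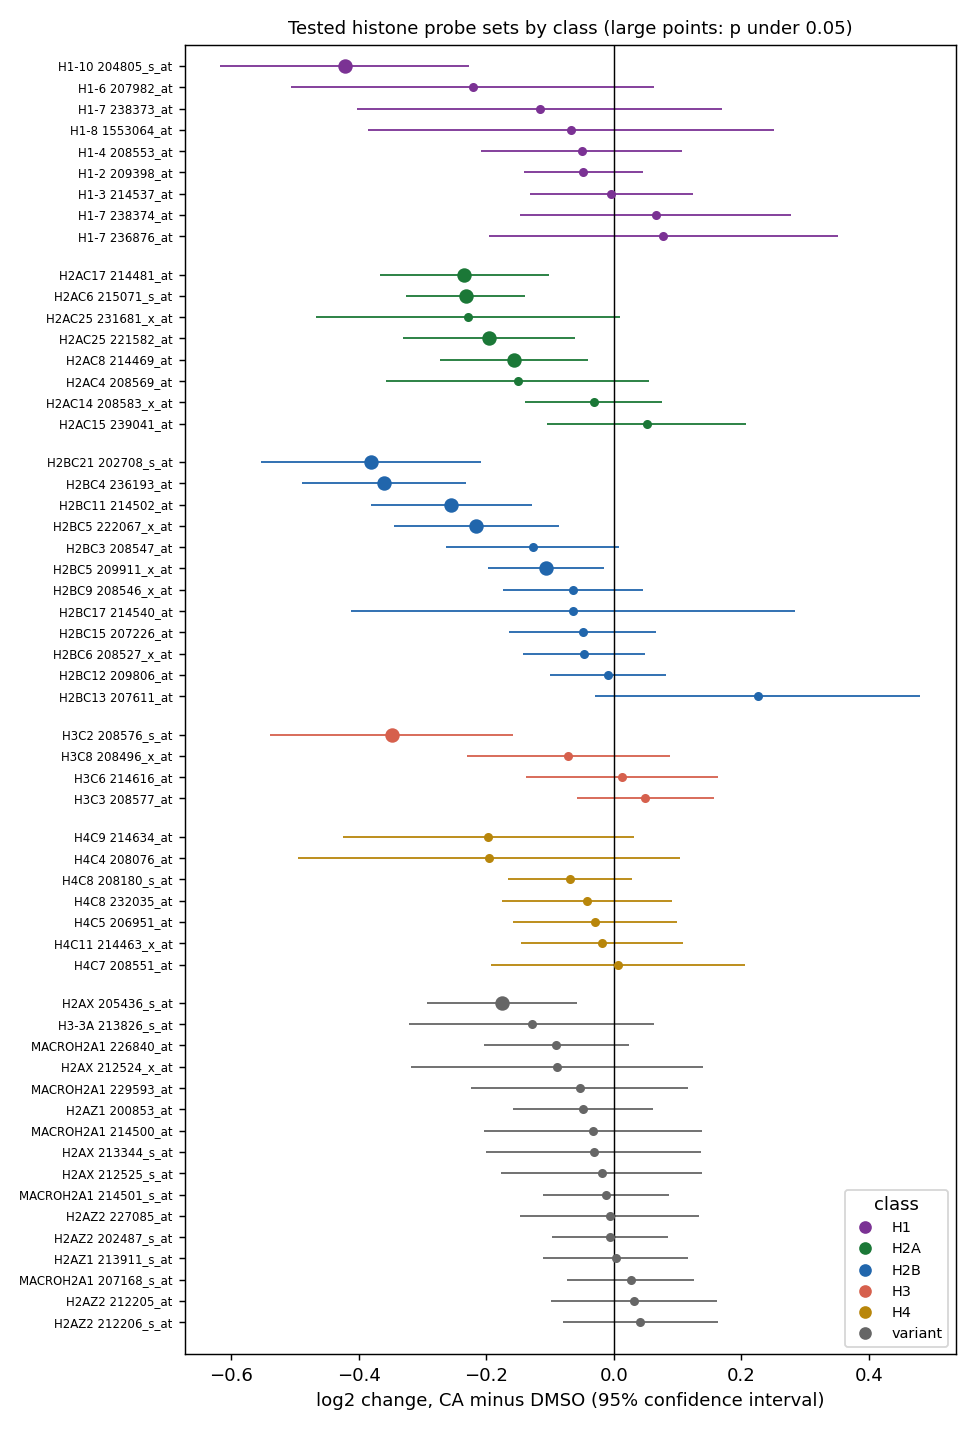
The log2 change (CA minus DMSO, horizontal axis) with its 95% confidence interval for each of the 56 tested histone probe sets, listed by class, with large points where the unadjusted p was under 0.05. The 12 large points all lie left of 0, and 10 of them are clustered genes.

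Other choices of prior variance or of filter gave other counts of called members. With a prior variance that depends on signal, limma called 8 histone probe sets, all lower: H2AC6 (adjusted p = 0.000137), H2BC4 (0.00226), H1-10 (0.00495), H2BC21 (0.00540), 1 of the 2 for H2BC5 (0.0168), 1 of the 4 for H2AX (0.0218), H2BC11 (0.0484) and H2AC25 (0.0485). That model called 0.385% of all probe sets as lower and 1.04% in either direction. With the filter raised to the 75th percentile and the plain prior, limma called 4 of the 33 histone probe sets still tested. These were H2BC4, H2AC6, H2BC21 and H1-10, at adjusted p of 0.0152 to 0.0481. That fit called 162 of all 13654 probe sets tested, in either direction.

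The pair with the smallest p, H2BC4 and H2AC6, are neighbours on chromosome 6 that are read in opposite directions from starts 246 bases apart, so the same stretch of DNA is upstream of both. The 250 bases before the start of H2BC4 and of H2BC21, the third gene in order of p, are shown because these genes lay lower together. They come from RefSeq, build GRCh38.p14, at chr6:26123927-26124176 on the minus strand and at chr1:149886683-149886932 on the minus strand. Capitals mark CCAAT, the TATA motif TATAAA and the octamer ATTTGCAT, searched on both strands, so that a match on the other strand is printed as its reverse complement.
H2BC4: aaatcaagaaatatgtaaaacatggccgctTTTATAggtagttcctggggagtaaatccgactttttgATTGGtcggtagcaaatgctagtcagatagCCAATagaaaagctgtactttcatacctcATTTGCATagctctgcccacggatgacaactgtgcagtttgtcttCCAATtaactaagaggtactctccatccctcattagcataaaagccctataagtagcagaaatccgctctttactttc
H2BC21: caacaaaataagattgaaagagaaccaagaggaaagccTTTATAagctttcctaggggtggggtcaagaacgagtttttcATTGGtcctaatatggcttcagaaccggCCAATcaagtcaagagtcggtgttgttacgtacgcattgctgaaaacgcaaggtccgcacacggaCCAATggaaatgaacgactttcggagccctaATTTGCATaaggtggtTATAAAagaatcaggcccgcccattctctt
The upstream window of H2AC6 shares 245 bases with that of H2BC4 and is not printed again. Seen from H2AC6, its TATA motif lies 31 to 26 bases before the start, and seen from H2BC4 the same letters lie 220 to 215 bases away, on the other strand. In H2BC21 a TATA motif lies 30 to 25 bases before the start and the octamer, a site class known for POU factors in H2B promoters, lies 46 to 39 bases before it. Both printed windows hold 3 CCAAT motifs.

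Over the histone genes, 48 of 50 had an entry in the promoter table, 40 of them clustered. CCAAT was present in 87.5% of the clustered windows, against 32.0% of all 35116 promoters of the same length. The TATA motif was present in 67.5%, against 10.7%, and the octamer in 40.0%, against 1.63%. By class, the octamer was in 10 of 13 H2B and 6 of 8 H2A windows and in none of the 9 H1, 6 H3, 7 H4 and 5 variant windows. These are matches of letters, not measured binding, and H2A and H2B genes that share a promoter are counted with the same DNA.

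The H2B and H2A genes, whose proteins pair as dimers on the outside of the nucleosome core, held 9 of the 12 probe sets at p under 0.05. Of the 56 tested probe sets, 12 were of H2B and 8 of H2A genes, and no difference between classes was tested. H2BC4 read 7.49, 7.51 and 7.36 with CA, against 7.79, 7.83 and 7.81 with DMSO. Each CA array lay below each DMSO array, and the spread was wider with CA (SD 0.08) than with DMSO (SD 0.02). Its change was -0.36 (95% confidence interval -0.49 to -0.23), or 1.28-fold lower, at a limma adjusted p of 0.129. H2AC6, its neighbour and the brightest H2A probe set, read 10.72, 10.69 and 10.72 with CA, against 10.95, 10.96 and 10.93 with DMSO. The groups did not overlap and each had an SD of 0.02, and the change was -0.23 (-0.33 to -0.14; adjusted p = 0.169).

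H2BC21, a core histone gene of the chromosome 1 cluster, read 7.72, 7.46 and 7.55 with CA, against 7.93, 7.99 and 7.95 with DMSO. The groups did not overlap, CA array 1 being the closest to DMSO, and the change was -0.38 (-0.55 to -0.21; adjusted p = 0.217). H2BC11 read 6.91, 6.79 and 6.78 with CA, against 7.06, 7.12 and 7.06 with DMSO, a change of -0.25 (-0.38 to -0.13; adjusted p = 0.247). H2BC5 has 2 probe sets that share probes with other transcripts, and they differed in size. The dimmer one, at 9.27, 9.43 and 9.38 with CA against 9.56, 9.57 and 9.59 with DMSO, had a change of -0.22 (limma adjusted p = 0.328). The brighter one, at 10.17, 10.17 and 10.18 against 10.29, 10.28 and 10.29, had a change of -0.11 (adjusted p = 0.457). Neither overlapped between the groups.

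Among the H2A genes, H2AC17 read 6.75, 6.66 and 6.63 with CA, against 6.92, 6.97 and 6.84 with DMSO, a change of -0.23 (-0.37 to -0.10; adjusted p = 0.301). H2AC25, which lies apart from the main clusters on chromosome 1, read 8.93, 8.82 and 8.94 with CA, against 9.17, 9.05 and 9.07 with DMSO. Its change was -0.20 (-0.33 to -0.06; adjusted p = 0.366), and its second, dim probe set had -0.23 with overlapping arrays. H2AC8 read 7.63, 7.54 and 7.60 with CA, against 7.80, 7.70 and 7.74 with DMSO, a change of -0.16 (-0.27 to -0.04; adjusted p = 0.391). On these probe sets, picked by an unadjusted p under 0.05, all 3 genes had CA arrays below their DMSO arrays, as 8.52% of all tested probe sets did.

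**Figure D2:**
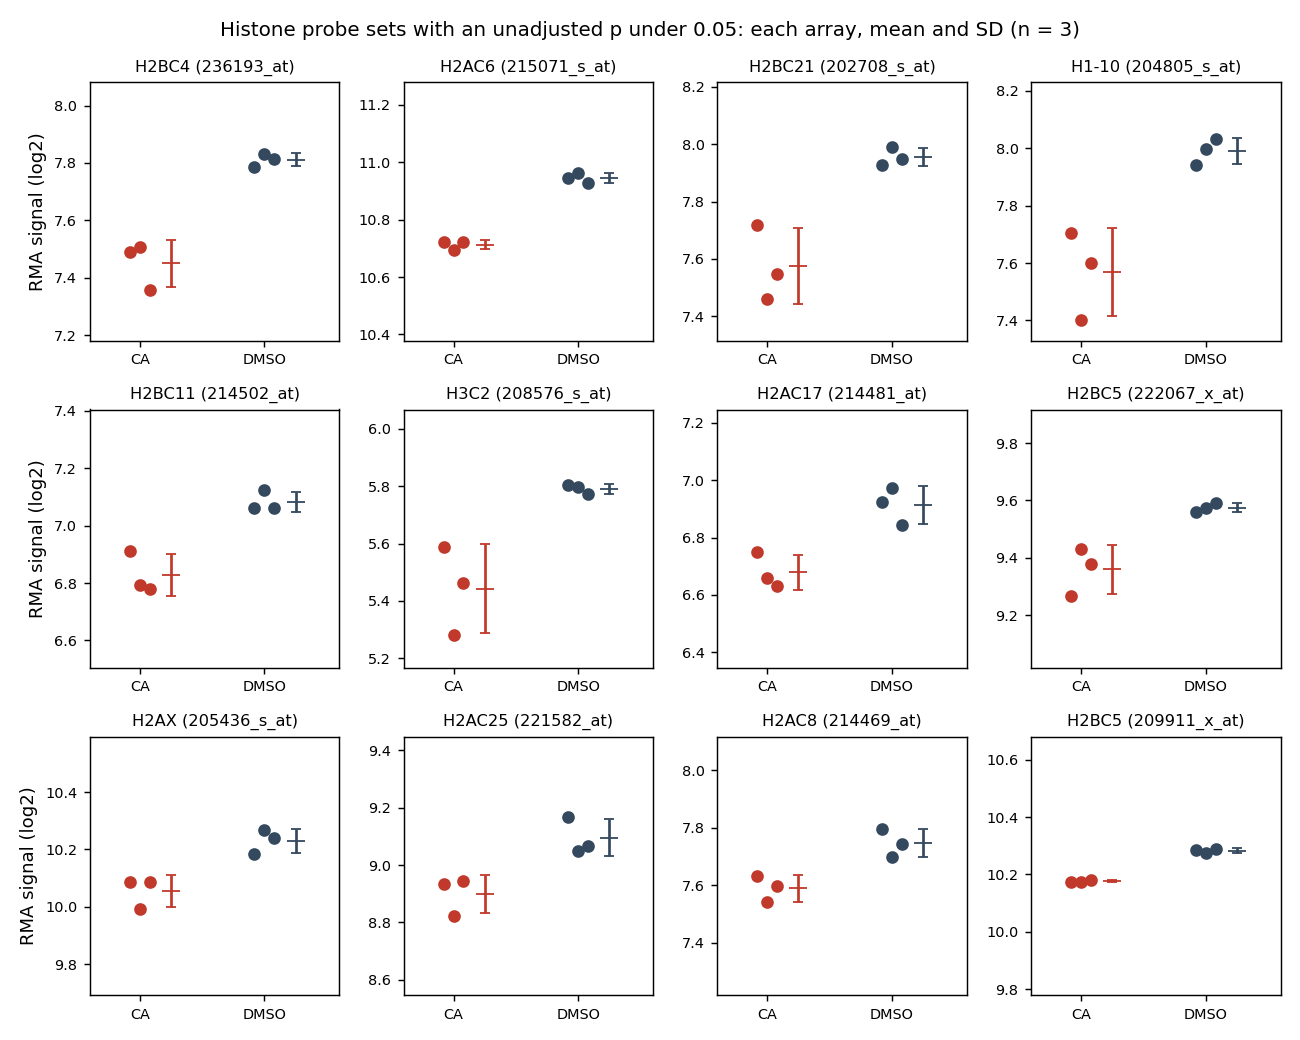
RMA signal (log2, vertical axes of equal height) on each array for the 12 histone probe sets with an unadjusted p under 0.05, with the CA arrays left of the DMSO arrays and the mean and SD of 3 arrays beside the points. In each panel the 3 CA points lie below the 3 DMSO points, which is no separate result, since the panels were picked by p.

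The brightest H2B probe set behaved otherwise. H2BC12 read 12.70, 12.72 and 12.72 with CA, against 12.71, 12.72 and 12.73 with DMSO, and its change was -0.01 (-0.10 to 0.08), so the interval leaves out differences as large as those of H2BC4 and H2BC21. H2BC6 at 10.97 with CA and 11.02 with DMSO had a change of -0.05, and H2BC9 of -0.06. H2BC13 was the H2B probe set with a positive fitted change, 0.23 (-0.03 to 0.48), at a low signal of 4.40 with CA and 4.17 with DMSO. The remaining H2B probe sets, of H2BC3, H2BC15 and H2BC17, had changes of -0.13 to -0.05. As a class, the 12 tested H2B probe sets had a median of -0.09, the 8 tested H2A probe sets -0.18. The other H2A probe sets were those of H2AC4 (-0.15), H2AC14 (-0.03) and H2AC15 (0.05), none with an unadjusted p under 0.05.

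There are 11 H2A and H2B gene pairs in the promoter table that are read in opposite directions from starts 194 to 248 bases apart. Both members were tested in 3 of these pairs. In the first, H2BC4 and H2AC6, both lay lower, as given above. In the second, H2AC17 had -0.23 and H2BC17, at a signal of only 3.80 with CA and 3.87 with DMSO, had -0.06 (-0.41 to 0.28). In the third, H2AC15 and H2BC15 had 0.05 and -0.05, each with an interval that spans 0.

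Of the H3 genes, which encode the core histone with the most studied tail modifications, 4 probe sets were tested and 1 had an unadjusted p under 0.05. Over all tested probe sets 9.31% had one. H3C2 read 5.59, 5.28 and 5.46 with CA, against 5.80, 5.80 and 5.77 with DMSO. The CA arrays lay below the DMSO arrays but varied more (SD 0.15, against 0.02 with DMSO), and the change was -0.35 (-0.54 to -0.16; adjusted p = 0.290). H3C8, the brightest, read 5.97, 5.81 and 5.91 against 6.02, 6.02 and 5.86, overlapping, with a change of -0.07 (-0.23 to 0.09). H3C3 and H3C6, both near the filter, had 0.05 and 0.01.

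None of the 7 tested H4 probe sets had an unadjusted p under 0.05, against 9.31% of all tested probe sets, and their median was -0.04. H4C8, the brightest H4 gene by a single-symbol probe set, read 8.10, 7.96 and 7.97 with CA, against 8.09, 8.06 and 8.01 with DMSO, a change of -0.04 (-0.18 to 0.09). Its second probe set had non-overlapping arrays, at 7.74, 7.69 and 7.74 with CA against 7.79, 7.78 and 7.81 with DMSO, and a change of -0.07 (-0.17 to 0.03). H4C9 and H4C4 had the most negative values, -0.20 each, with intervals that span 0. H4C5, H4C11 and H4C7 had changes of -0.03 to 0.01.

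Of the 9 tested linker histone probe sets 1, that of H1-10, had an unadjusted p under 0.05, against 9.31% of all tested probe sets. No difference between the linker histone genes was tested. H1-10, which encodes the linker variant also called H1X and lies outside the clusters, on chromosome 3, read 7.70, 7.40 and 7.60 with CA, against 7.94, 7.999 and 8.03 with DMSO. The groups did not overlap, and the change of -0.42 (-0.62 to -0.23; adjusted p = 0.223), or 1.34-fold lower, was the most negative of any histone probe set with 1 symbol. H1-2, a clustered somatic linker histone and the brightest H1 probe set, read 12.38, 12.37 and 12.38 against 12.41, 12.45 and 12.41. Its arrays did not overlap either, but the change was -0.05 (-0.14 to 0.05). H1-3 at 6.26 with CA and 6.27 with DMSO had a change of 0.00 (-0.13 to 0.12), and H1-4 of -0.05. The germ cell genes H1-6, H1-7 and H1-8, dim in both groups, had values from -0.22 to 0.08 and overlapping arrays.

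Of the 16 tested variant probe sets with a single symbol, 1, for H2AX, had an unadjusted p under 0.05. That is no higher than the 9.31% of all tested probe sets. H2AX, whose product is phosphorylated around DNA breaks, read 10.09, 9.99 and 10.09 with CA, against 10.18, 10.27 and 10.24 with DMSO on its brightest probe set. Those groups did not overlap, and the change was -0.17 (-0.29 to -0.06; adjusted p = 0.357). Its other 3 probe sets, at 3.82 to 6.58 with CA and 3.91 to 6.62 with DMSO, had -0.09 to -0.02 and overlapping arrays. H2AX differs from the other variants in that its gene also makes a stem-loop transcript besides a polyadenylated one.

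H2AZ1, which encodes the H2A.Z found at promoters, read 12.84, 12.78 and 12.81 with CA, against 12.82, 12.85 and 12.75 with DMSO, a change of 0.00 (-0.11 to 0.12), and its second probe set had -0.05 (-0.16 to 0.06). The 4 probe sets of H2AZ2, the second H2A.Z gene, had changes of -0.01 to 0.04 and overlapping arrays. MACROH2A1, encoding an H2A variant with a large extra domain, had 5 tested probe sets at -0.09 to 0.03. Its brightest read 11.11, 11.10 and 11.10 with CA, against 11.09, 11.11 and 11.04 with DMSO. H3-3A, 1 of 2 genes for the replication-independent H3.3, read 6.59, 6.82 and 6.58 against 6.77, 6.88 and 6.72, a change of -0.13 (-0.32 to 0.06). H3-3B has no probe set with a single symbol.

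The median over the 16 tested variant probe sets was -0.03, and over the 35 tested clustered probe sets it was -0.07, with 30 of 35 below 0. All tested probe sets had -0.01. No difference between the clustered and the variant genes was tested, since members share arrays and partly probes. Counts by signal are a description, and no difference between signal ranges was tested. Of the 17 clustered probe sets with a mean under 6, 1 had an unadjusted p under 0.05, against 9.38% of all tested probe sets in that range, and the median was -0.06, against 0.00. Of the 11 between 6 and 9, 6 had one, against 10.6% of all, and the median was -0.16, against -0.01. Of the 7 at 9 or more, 3 had one, against 5.21% of all, and the median was -0.06, against -0.01. Of the 10 clustered probe sets at p under 0.05, 2 were among the 3 tested on chromosome 1 and 8 among the 32 on chromosome 6.

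By probe set type, the 33 tested histone probe sets ending in _at, designed to read 1 transcript, had a median of -0.05 and 5 at p under 0.05. The 14 ending in _s_at, shared between transcripts, had -0.05 and 5, and the 9 ending in _x_at, which may also read unrelated sequences, had -0.07 and 2. Over all tested probe sets of these types, in the same order, the medians were -0.01, -0.01 and 0.00, and 9.28%, 9.93% and 7.33% had an unadjusted p under 0.05. Histone genes within a class have very similar coding sequences, so values may mix several genes. This is not confined to the shared types. Among the probe sets ending in _at, an H4 one was annotated to 14 symbols and an H2B one to 2.

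**Figure D3:**
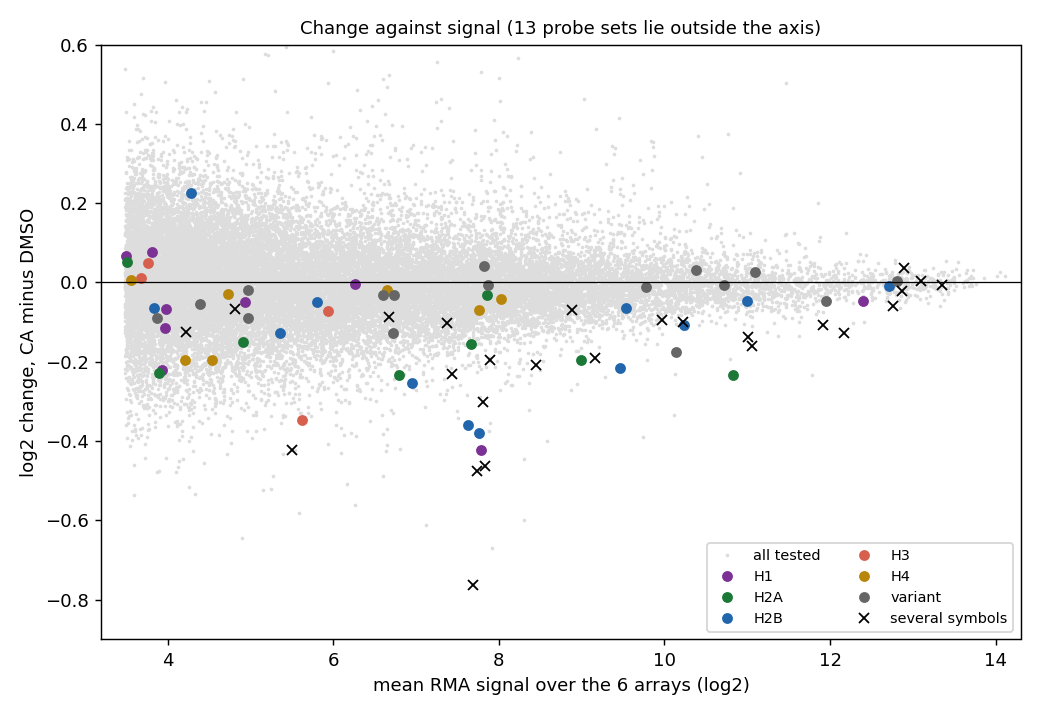
The log2 change (CA minus DMSO, vertical axis) against the mean signal over the 6 arrays (log2, horizontal axis) for all 27307 tested probe sets in grey, the histone probe sets coloured by class, and probe sets with several symbols, at least 1 of them a histone gene in the group, as crosses, with 13 probe sets outside the axis range. The lowest cross, at -0.76, is an H2B probe set, and the points at the far right lie near 0.

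A further 28 probe sets were annotated to several symbols, at least 1 of them a histone gene of the group, and these cannot be given to 1 gene. Of the 25 tested, 23 had a fitted change below 0, against 53.5% of all tested probe sets. Their median was -0.13, against -0.01. One of them, an H2B probe set annotated to 2 symbols, was the only histone probe set called over all probe sets. It fell to 7.34, 7.28 and 7.32 with CA, against 8.08, 8.10 and 8.04 with DMSO. The groups lay far apart relative to their SDs of 0.03 each, and the change was -0.76 (-0.86 to -0.66), or 1.70-fold lower, at a limma adjusted p of 0.00555. Without CA array 2 or 3 or any of the DMSO arrays the change was -0.78 to -0.75 and the adjusted p exceeded 0.05, reaching 0.0882, and with the control covariate it was -0.74 (adjusted p = 0.756).

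At an unadjusted p under 0.05, 13 of these 25 were lower and 0 higher, against 4.76% and 4.55% of all tested probe sets. The prior that follows the mean called 9, all lower, where it called 0.385% of all probe sets as lower. A probe set annotated to 11 symbols, H2A and H3 genes among them, had -0.48 (limma adjusted p = 0.0585). An H2A probe set annotated to 6 symbols had -0.46 (adjusted p = 0.177). Of the 8 annotated to both H3.3 genes and a further symbol, 4 had an unadjusted p under 0.05 and the range was -0.23 to 0.04, with the brightest, at 13.35 in both groups, at -0.01. The 4 tested H4 probe sets with several symbols had -0.42 to -0.06. The brightest of them read 12.73 with CA and 12.79 with DMSO.

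Genes that make and process histone transcripts were followed in a list of 33, of which 30 were measured by the brightest single-symbol probe set. None was called by limma, 3 had an unadjusted p under 0.05, all lower, and the median was -0.02, against 8.61% at p under 0.05 and a median of -0.01 over 12810 measured genes. CASP8AP2, the protein also called FLASH that is needed to cut the 3' end of histone transcripts, averaged 6.995 ± 0.09 with CA and 7.24 ± 0.07 with DMSO (SD, n = 3 each), a change of -0.25 (-0.40 to -0.09; limma adjusted p = 0.339). The cyclin E genes CCNE2 (-0.36, adjusted p = 0.304) and CCNE1 (-0.18, adjusted p = 0.331), whose kinase complex activates the histone gene coactivator NPAT, were the other members. For all 3 genes, picked by that p, the CA arrays lay below the DMSO arrays, as for 8.52% of all tested probe sets. NPAT itself had a change of 0.04 (-0.10 to 0.17), and SLBP, which binds the stem-loop and was the brightest member, one of -0.05 (-0.15 to 0.05).

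Histone chaperones and deposition factors gave 0 of 23 called, with 0 at an unadjusted p under 0.05, and a median of -0.02. Of all 12810 measured genes 11 were called and 8.61% had such a p, with a median of -0.01. NAP1L1, the brightest, had a change of 0.05 and HIRA, an H3.3 chaperone, one of -0.02. The chromatin assembly factor subunits CHAF1A and CHAF1B had -0.11 and -0.13. Of 13 further histone genes outside the group 3 were measured: H2AJ (-0.05), the centromeric CENPA (0.04) and MACROH2A2 (0.01). Among 23 measured S phase genes, 0 were called and 5 had an unadjusted p under 0.05, against 8.61% of all measured genes. All 5 were lower, and the list median was -0.05, against -0.01. The 5 were CDT1 (-0.22), E2F2 (-0.20), CCNE2, CCNE1 and RRM2 (-0.12), whereas TYMS, the brightest, had 0.00. CCNE2 and CCNE1 also stand in the list of genes that make and process histone transcripts. The part of cell cycle position in the histone values was not tested.

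**Figure D4:**
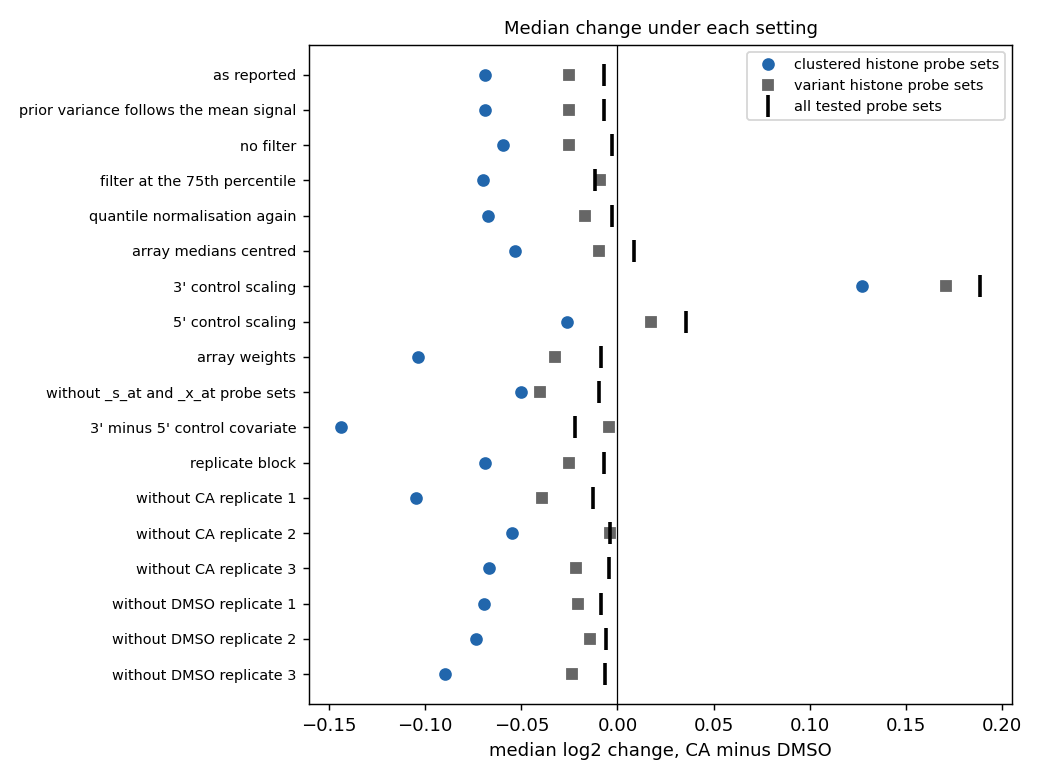
Median log2 change (CA minus DMSO, horizontal axis) of the clustered histone probe sets, the variant histone probe sets and all tested probe sets under each setting, listed down the vertical axis. The clustered median lies left of the median of all probe sets in each setting, and on the 3' control scale all 3 medians lie right of 0.

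The direction of the smaller changes depends on the scale. The 8 probe sets for the 3' ends of the added control RNAs dap, lys, phe and thr had means lower with CA by 0.20 on average, and scaling to them adds that amount to every change, giving a median of 0.19 over all probe sets. On that scale 17 histone probe sets were higher and 2 lower at an unadjusted p under 0.05, and the clustered median was 0.13. The share of all probe sets at that p was not counted on this scale, so the 17 and 2 show no trait of the histone genes. At an adjusted p under 0.05, limma called 3691 of all 27307 there and 0 of the 56 histone probe sets. H2BC21 (-0.18), H2BC4 (-0.16), H1-10 (-0.23) and H3C2 (-0.15) kept negative values there. Smaller negative values were left for H2BC11 (-0.06), H2AC17 (-0.04), H2AC6 (-0.04) and the dimmer H2BC5 probe set (-0.02). H2AX and H2AC8 turned to 0.02 and 0.04, the brighter H2BC5 probe set to 0.09 and H2AC25 to 0.00. All changes above are on the RMA scale, relative to the bulk of the transcripts.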

How the data were processed

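Expression was measured on Affymetrix Human U133 Plus 2.0 arrays from 100 ng of total RNA, 3 arrays with CA and 3 with DMSO. The authors deposited log2 values per probe set, made with RMA in the affy package per the submitters' processing notes, with versions not given in the sources used here. From these values 62 control probe sets were set aside, and probe sets with a mean over the 6 arrays not below the median of these means were tested.

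CA was compared with DMSO by limma 3.58.1 (lmFit and eBayes, R 4.3.3), 2-sided, with Benjamini-Hochberg adjustment over all 27307 tested probe sets. "Called" means an adjusted p under 0.05. The median standard error of a change was 0.07, and the number of arrays limits the precision. The fit was tested on simulated data of the same size.

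Histone genes were taken from the platform annotation. The symbols of all 71 probe sets, 50 genes, matched RefSeq by gene ID. Probe sets with several symbols name no gene. Named were members at an unadjusted p under 0.05 or called with the other prior, the brightest of each class, and list members by the same p and brightness. The members and lists were chosen with earlier results of these data known. The other probe sets named, including the H2B one with several symbols, were chosen after their values were seen. Protein sequences were not used here.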

Additional observations from a re-analysis of the deposited data

How the results depend on the processing

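The count of 26 called probe sets was 285 with a prior variance that depends on signal, 162 with a filter at the 75th percentile, 3691 with 3' control scaling, 5 with no filter, 1 without _s_at and _x_at probe sets, and 0 with the control covariate or the replicate block. Without each array in turn it was 2 to 5. The 0 called histone probe sets became 8 with the mean-dependent prior and 4 with the higher filter, and stayed 0 in the other settings. The 12 lower at an unadjusted p under 0.05 were 2 with 3' and 5 with 5' control scaling, 5 without _s_at and _x_at probe sets, 6 with the covariate, and 10 to 13 without an array. The share of all probe sets at that p was not counted in these settings. The clustered median of -0.07 was 0.127 with 3' control scaling and -0.144 with the covariate, and -0.105 to -0.055 without an array. The variant median was 0.171 with 3' and 0.0176 with 5' control scaling. With 3' control scaling the sign changed for H2AX (0.0210), H2BC5 on its brighter probe set (0.0897), H2AC8 (0.0395), H2AC25 (0.00055), H1-2 (0.148), H2BC12 (0.187), H3C8 (0.124), H4C8 (0.154), CCNE1 (0.0206) and RRM2 (0.0710). H2BC12 was also above 0 with centring (0.00667), 5' control scaling (0.0336) and the covariate (0.00949), and H4C8 with 5' control scaling (0.00047). H2AZ1 was below 0 with array weights (-0.0113) and, without an array, ranged from -0.0279 to 0.0266. By construction a control scaling adds 1 amount to every change, and the covariate and the block leave fewer degrees of freedom. Otherwise the cause was not tested.

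Of 396 values of 24 probe sets under these alternatives, 355 kept their direction and side of the threshold. The other prior, the other filters and the replicate block leave the change itself as it was, so its direction could not differ there. All but the H2B probe set with several symbols were not called at first, so for them the same side means still not called. The replicate numbers gave no sign of pairing. Deviations of same-numbered arrays correlated at -0.0700, 0.0102 and 0.0611, and those of arrays with different numbers at -0.112 to 0.0909. With 3 arrays per group this cannot show that the samples were unpaired. With the replicate block 0 of all probe sets were called, so the 0 called histone probe sets stayed 0. There 12 of them were lower at an unadjusted p under 0.05, as without the block. The called H2B probe set with several symbols, at -0.76, had an adjusted p of 0.207 in limma with the block.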
